A study of Mus musculus with 16 samples.

Results

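The comparison described here is the last step of blood formation from hemogenic endothelium in mouse embryonic stem (ES) cell cultures that lack Sp1 DNA binding. It sets Sp1-/- progenitors (2 arrays) against the second stage of the hemogenic endothelium, HE2 (2 arrays), so that 4 of the 16 arrays of the series were chosen, by genotype and population. Both groups came from 1 Sp1-/- ES cell clone, in which the Sp1 protein is cut short and lacks the part that contacts DNA, and the labels give C57BL/6 as the strain. Embryonic stem cells were differentiated through Flk1+ cells into blast cultures, floating and adherent cells were combined, and cells were sorted on day 2. HE2 was sorted as KIT+ CD41+ Tie2+ and progenitors as KIT+ CD41+ Tie2-, so the loss of Tie2 separates the groups. Sp1+/+ ES cells of the E14 line, differentiated and sorted alike, gave the other genotype and appear below only where the step differed. The series describes its replicates as independent biological replicates, and a legend of the study calls them technical. The p-values therefore measure the spread between the 2 arrays of a group, pooled over all 16 arrays, whatever its source.

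Hemogenic endothelium is a specialized endothelium of the embryo from which blood cells arise by the endothelial-hematopoietic transition. Flat, adherent cells held together by endothelial junctions switch on blood genes under factors such as RUNX1, lose their junctions and their endothelial receptors, round up and detach as progenitors. Tie2, the product of Tek, is a receptor of endothelial cells for angiopoietins. CD41, the product of Itga2b, is the integrin of the platelet lineage and the first surface mark of embryonic blood, and KIT is the receptor for stem cell factor. Sp1 is a ubiquitous transcription factor that binds GC boxes, the letters GGGCGG or their complement, in the promoters of many genes. The study describes it as an activator and, for targets that were higher without it, also as a repressor.

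Expression was measured on 1-color Agilent arrays, and the values below are the authors' deposited log2 intensities, in which 1 unit is a 2-fold difference in signal. They hold an additive offset before the log, so the change of a dim gene is understated. The number of arrays limits the precision. Between 69.34% and 73.98% of the spots on the 4 arrays were well above background and 0 were saturated. Across genes, the replicates correlated at r = 0.9951 in HE2 and 0.9975 in progenitors, whereas an HE2 array and a progenitor array correlated at 0.9817 to 0.9832. A gene was called when its unadjusted p, from a limma model of all 16 arrays, was 0.01 or less and its change at least 2-fold. The adjusted p-values printed beside it use the Benjamini-Hochberg method across the 37149 genes tested.

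From HE2 to progenitors in Sp1-/- cells, 864 genes rose (2.33% of genes tested) and 988 fell (2.66%), which is 1852 genes or 4.99% in all. The counts in the gene lists below are to be read against these shares. A single call can be near them, as 1 rise of 38 DNA replication genes is 2.6%. The largest adjusted p among them was 0.0595, and at an adjusted p of 0.05 or less 848 rose and 969 fell. Changes of at least 4-fold were found in 149 genes that rose and 227 that fell, and changes of at least 8-fold in 33 and 59. Endothelial receptors, junction proteins and transcription factors, basement membrane components and contractile proteins were lower in progenitors, and the erythroid program, a set of phagocyte genes and interferon-stimulated genes were higher. Genes of DNA replication, mitosis and ribosome production differed little.

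The genes used for the sort were looked at first. Tek, which defines the gate, had log2 intensities of 10.61 and 10.78 in HE2 and 7.62 and 8.32 in progenitors. Its 6.61-fold difference (log2 change -2.72, SE 0.47) follows from the sort and is no finding. Kit, for which both gates were positive, measured 12.75 and 13.04 in HE2 and 11.62 and 12.02 in progenitors, a log2 change of -1.07 (adjusted p = 0.0577). This call of Kit was lost when any of the 4 arrays was left out, with values from -1.27 to -0.88. Itga2b, likewise on both sides of the sort, was at 12.12 and 12.68 against 11.66 and 11.96 and was not called (-0.59, adjusted p = 0.292). Sp1 transcript, from the mutated gene, gave 9.44 and 10.06 in HE2 and 9.29 and 9.41 in progenitors (-0.40, adjusted p = 0.163).

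**Figure D1:**
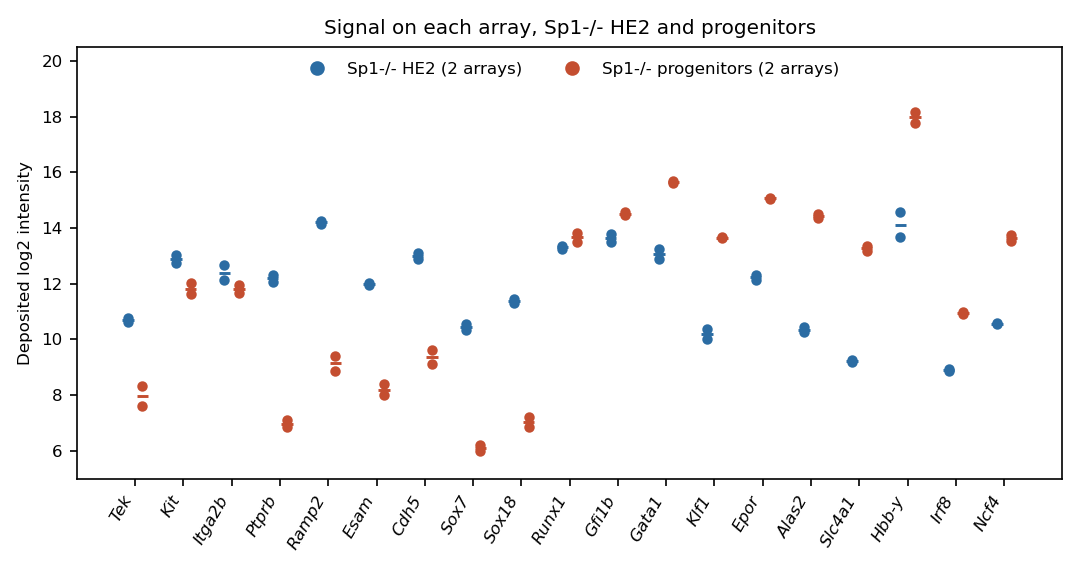
Deposited log2 intensity of 19 genes (vertical axis) on each Sp1-/- array. Blue points are the 2 HE2 arrays, red points the 2 progenitor arrays and short bars their means. Tek and the endothelial genes Ptprb to Sox18 lie lower in progenitors, the erythroid and myeloid genes from Gata1 to Ncf4 lie higher, and Itga2b and Runx1 differ by less than 1 unit.

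Promoters of 5 genes that the results below turn on are shown as letters, because Sp1 binds a short DNA sequence and the cells lack that binding. Alas2, Urod and Epor rose, and Tek and Bmp4 fell. The sequences are from RefSeq on build GRCm38.p6 and run on the coding strand from 250 bases before to 50 bases after the annotated start. Capitals mark the GC box (GGGCGG), the GATA letters (AGATAA), the RUNX letters (TGTGGT) and the CACCC box (CCACACCC) on either strand. The last of these can overlap the RUNX letters where an A precedes it.
Alas2 (chrX:150547167-150547466, + strand): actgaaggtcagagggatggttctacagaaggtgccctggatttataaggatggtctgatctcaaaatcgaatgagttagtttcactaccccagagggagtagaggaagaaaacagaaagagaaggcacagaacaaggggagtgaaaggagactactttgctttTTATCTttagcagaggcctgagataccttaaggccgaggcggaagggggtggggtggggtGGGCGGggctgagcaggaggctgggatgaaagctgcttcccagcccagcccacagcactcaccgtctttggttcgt
Urod (chr4:116994364-116994663, - strand): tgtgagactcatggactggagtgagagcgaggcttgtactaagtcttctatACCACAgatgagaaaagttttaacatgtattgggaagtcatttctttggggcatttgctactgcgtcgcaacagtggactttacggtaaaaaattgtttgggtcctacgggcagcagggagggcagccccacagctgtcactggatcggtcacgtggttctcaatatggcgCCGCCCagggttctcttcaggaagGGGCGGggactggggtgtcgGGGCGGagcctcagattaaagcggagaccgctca
Epor (chr9:21963527-21963826, - strand): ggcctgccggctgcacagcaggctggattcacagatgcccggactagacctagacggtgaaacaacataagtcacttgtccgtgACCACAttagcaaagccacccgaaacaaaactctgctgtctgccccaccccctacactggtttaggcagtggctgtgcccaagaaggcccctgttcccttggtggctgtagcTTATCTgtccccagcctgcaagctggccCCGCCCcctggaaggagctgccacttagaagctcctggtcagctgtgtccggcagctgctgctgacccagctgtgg
Tek (chr4:94739039-94739338, + strand): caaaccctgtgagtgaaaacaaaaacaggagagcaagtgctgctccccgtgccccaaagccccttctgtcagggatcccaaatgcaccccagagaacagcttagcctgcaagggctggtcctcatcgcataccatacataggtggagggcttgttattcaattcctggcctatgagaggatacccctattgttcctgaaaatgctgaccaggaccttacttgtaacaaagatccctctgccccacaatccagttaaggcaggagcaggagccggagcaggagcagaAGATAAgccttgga
Bmp4 (chr14:46390620-46390919, - strand): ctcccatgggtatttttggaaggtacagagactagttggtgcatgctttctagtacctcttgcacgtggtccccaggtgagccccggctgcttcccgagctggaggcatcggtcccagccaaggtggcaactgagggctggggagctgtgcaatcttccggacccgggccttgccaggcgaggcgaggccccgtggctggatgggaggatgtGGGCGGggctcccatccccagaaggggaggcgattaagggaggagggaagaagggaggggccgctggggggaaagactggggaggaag
The Alas2 window holds GATA letters from 86 and a GC box from 26 bases before the start, and the Epor window GATA letters from 54 and a GC box from 26 bases before it. Urod has GC boxes 28 and 4 bases before the start and a further one 17 bases after it. Tek holds GATA letters downstream of its start and no GC box, and Bmp4 has a GC box 38 bases before its start. A GC box is found in 35.9% of the 27025 RefSeq windows of this length, GATA letters in 11.4%, RUNX letters in 16.9% and the CACCC box in 3.6%. These shares are over all windows and not over the genes tested, and the 5 genes shown were picked. Windows were found for 516 of the 652 genes with a symbol that rose (79.1%) and 580 of the 789 that fell (73.5%), under the 80% set as a minimum. A comparison of shares between them is therefore void and is not given. A match is a description of letters, not of a bound site.

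Endothelial receptors and junction proteins were the largest group to fall. Of 45 measured members, 29 fell (64.4%) and none rose, against 2.66% of all genes, and the median log2 change was -1.78, where that of all genes was 0.005. Ramp2, which with CALCRL forms the adrenomedullin receptor, went from 14.16 and 14.24 in HE2 to 8.86 and 9.41 in progenitors. That is a 33.5-fold fall (log2 change -5.06, SE 0.82, adjusted p = 0.00194). Cdh5, encoding VE-cadherin of the adherens junction, had log2 intensities of 13.09 and 12.88 against 9.12 and 9.61 (-3.62, SE 0.43, adjusted p = 0.000284). Both progenitor arrays of both genes lay more than 3 units under both HE2 arrays. Cldn5, the claudin of endothelial tight junctions, was 9.94 and 9.98 in HE2 and 6.38 and 6.26 in progenitors, a 12.5-fold fall. Esam, a junctional adhesion molecule, measured 11.96 and 12.01 against 8.00 and 8.38, and Ecscr, a surface protein of endothelial cells, 13.27 and 12.97 against 9.02 and 9.23. All of these changed in the direction of Tek.

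The fall did not include every endothelial gene. Kdr, encoding the VEGF receptor Flk1, stood at 14.18 and 14.32 in HE2 and at 14.17 and 14.30 in progenitors (-0.01, SE 0.25, adjusted p = 0.982). Pecam1, the adhesion molecule CD31, was at 10.05 and 10.59 against 9.73 and 9.77 (-0.57, adjusted p = 0.187). Cd34, a sialomucin of endothelium and blood progenitors, had 15.47 and 15.70 against 15.09 and 15.33 (-0.37, adjusted p = 0.518). None of these was called, and the arrays of Kdr overlapped between the groups. Emcn, the endothelial sialomucin endomucin, fell from 8.09 and 8.10 to 6.07 and 6.00, where no progenitor array was well above background.

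The largest fall of any gene with a symbol was that of Ptprb, the endothelial phosphatase VE-PTP that acts on Tie2 and VE-cadherin. It went from 12.31 and 12.07 in HE2 to 6.85 and 7.09 in progenitors, a 37.3-fold fall (log2 change -5.22, SE 0.60, adjusted p = 0.00022). Madcam1, an addressin that binds integrin alpha4beta7, fell 22-fold, from 11.78 and 11.91 to 7.37 and 7.40. Gas6, the ligand of the TAM receptor kinases, was at 13.58 and 13.45 in HE2 and at 9.37 and 9.56 in progenitors, a 16.6-fold fall. Dpysl3, a cytoskeletal regulator, fell 19.3-fold, Gm13889 17.4-fold, Oit3 13.1-fold and Ldb2, a cofactor of LIM proteins, 12.6-fold. In each of these genes both progenitor arrays lay under both HE2 arrays, which the rule that chose them required. Madcam1 and Dpysl3 have 2 probes each. Over the alternatives listed in the processing section, the log2 change of Madcam1 ran from -4.964 to -2.685. That of Dpysl3 ran from -4.576 to -2.76.

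Among endothelial transcription factors, 10 of 21 fell and none rose (median -1.0). The 3 SoxF factors, which specify endothelial fate, all fell. Sox18 went from 11.30 and 11.45 to 6.86 and 7.21 (log2 change -4.34, SE 0.39, adjusted p = 5.89e-05). Sox7 had 10.55 and 10.34 in HE2 and 6.00 and 6.20 in progenitors, where it was not well above background on either array, so it was at least 19.8-fold lower (adjusted p = 0.0025). Sox17 was likewise not well above background in progenitors and at least 6.13-fold lower (adjusted p = 0.0446), a call that was lost when any of the 4 arrays was left out. Erg, an ETS factor shared with blood stem cells, fell from 11.07 and 11.01 to 8.87 and 9.0, and Klf2, a factor induced by flow, from 13.94 and 13.21 to 11.65 and 10.85. Tbx3 fell 6.30-fold. Etv2, Elk3 and Ets1 of the ETS family and Klf4 were also among the 10. Hhex, Epas1 and Mecom were not called, with log2 changes of -0.23, -0.11 and -0.48.

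Notch signaling, which acts in arterial and hemogenic endothelium, was called in 4 of 20 members, with 1 rise and 3 falls, against 4.99% of all genes. Mfng, a glycosyltransferase that modifies Notch, fell from 12.69 and 12.91 to 10.96 and 10.97 (adjusted p = 2.93e-05). Notch3 fell by 1.13 on the log2 scale and the target Hes1 by 1.82, but the HE2 arrays of Hes1 differed, at 10.14 and 8.57, and without HE2 replicate 1 its change was -1.03 and not called. Without that array Notch3 was at -0.95 and was not called either. Heyl rose by 1.08 from values of 6.33 and 6.30, and was 0.995 without progenitor replicate 2. Notch1, Dll4 and Jag1 were not called (-0.14, -0.38 and 0.37).

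BMP and TGF-beta signaling fell in 9 of 32 members and rose in none (median -0.50). Bmp4, the ligand whose promoter is printed above, had log2 intensities of 12.78 and 12.40 in HE2 and 9.34 and 9.58 in progenitors, an 8.75-fold fall (log2 change -3.13, SE 0.25, adjusted p = 3.97e-05). Bmp4 has 2 probes, and over the alternatives its log2 change ran from -3.32 to -1.48. Bmp2 fell from 11.92 and 11.78 to 9.77 and 9.83, and Tgfb2 from 10.37 and 9.42 to 7.48 and 7.40. Of the receptors, Eng, the endothelial coreceptor endoglin, fell 8.49-fold and Acvr1 was also called. Among the targets, Id3 went from 12.48 and 12.44 to 9.35 and 9.27, and Id1 and Smad6 fell as well. Ligands, a receptor, a signal transducer (Smad1) and targets were thus all represented, while Tgfb1, Smad7 and Bmpr1a were not called.

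In the Wnt pathway 8 of 37 members fell and 2 rose (median -0.46), against 2.66% and 2.33% of all genes. With the scanner's processed signal 15 fell. The receptors Fzd1 (9.56 and 9.30 against 7.0 and 7.32) and Fzd2 (9.89 and 9.27 against 7.12 and 7.35) fell by 2.27 and 2.34 on the log2 scale. Fzd2 has 2 probes, and over the alternatives its change ran from -3.117 to -1.163. The nuclear effectors Lef1 and Tcf7l1 fell by 1.86 and 1.81. Wnt4 fell by 1.82, but it was not called without HE2 replicate 1 (-1.46) or without either progenitor array (-1.83 and -1.82). Sfrp5, a secreted Wnt antagonist, and Wnt2 rose by 1.26 and 1.03, but Sfrp5 lost its call without HE2 replicate 1 (1.01) or progenitor replicate 1 (1.105) and Wnt2 without HE2 replicate 2 (0.935) or progenitor replicate 2 (0.875). Ctnnb1 and Axin2 were not called.

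The extracellular matrix, the scaffold on which adherent cells sit, showed the largest number of falls after the endothelial receptors. Of 44 members 22 fell and 2 rose (median -1.12), against 2.66% and 2.33% of all genes. Both chains of the main basement membrane collagen fell, Col4a1 from 12.36 and 12.42 to 8.66 and 9.21 (11-fold) and Col4a2 from 12.77 and 12.83 to 9.43 and 9.95 (8.63-fold). Fbn1, encoding fibrillin 1 of microfibrils, fell 12.3-fold, from 10.22 and 9.77 to 6.18 and 6.58. The laminin chain Lama1 fell 7.75-fold and its partner nidogen, Nid1, 6.84-fold. Over the alternatives the log2 change of Nid1 ran from -3.108 to -1.428. Fn1, encoding fibronectin, was at 16.38 and 16.01 in HE2 and at 13.06 and 14.12 in progenitors (log2 change -2.60, adjusted p = 0.00113). Sparc, a matrix glycoprotein, was at 16.74 and 16.81 against 14.12 and 14.35. Agrn, a heparan sulfate proteoglycan, went the other way by 1.02, but was 0.4975 with the mean over its probes, and Bgn by 1.87 with an adjusted p = 0.0595, and Agrn lost its call without HE2 replicate 2 or progenitor replicate 2 and Bgn without any 1 of the 4 arrays.

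Integrins, the receptors for that matrix and for counter-receptors on other cells, were divided, with 4 of 24 lower and 5 higher, against 2.66% and 2.33% of all genes. The laminin, collagen and fibronectin receptor chains Itga7, Itga1, Itga3 and Itga5 fell, by 1.45, 1.54, 1.26 and 1.17 on the log2 scale. Leukocyte chains rose. Itgb7 went from 8.67 and 8.96 to 11.42 and 11.34 (log2 change 2.57, SE 0.18, adjusted p = 2.24e-05), Itgax from 6.74 and 6.63 to 8.92 and 8.42 and Itgb2 from 9.69 and 10.06 to 11.18 and 11.20. Itga4 and Itga9 also rose, by 1.03 and 1.04, but 3 integrins in all were called higher without HE2 replicate 1, HE2 replicate 2 or progenitor replicate 2. Itgb1, the beta chain shared by many adhesion receptors, was not called (-0.56).

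Erythroid genes formed the largest rise. Heme is made from glycine and succinyl-CoA in 8 enzymatic steps, the first of which is catalyzed by ALAS2 in red cells and by ALAS1 elsewhere. Of the 9 enzymes, 8 rose, against 2.33% of all genes, with a median log2 change of 1.82. Alas2 went from 10.45 and 10.25 in HE2 to 14.51 and 14.37 in progenitors, a 17.0-fold rise (log2 change 4.09, SE 0.56, adjusted p = 0.000693) and the largest of any gene with a symbol. Alas1, the housekeeping isozyme, was at 12.32 and 12.54 against 12.51 and 12.63 and was not called (0.14, adjusted p = 0.474). Among the later enzymes, Uros rose 6.77-fold, Cpox 5.21-fold, Ppox 3.54-fold and Urod 2.57-fold. In all 8 genes that rose, both progenitor arrays lay above both HE2 arrays (over all genes tested, 56.82% had groups that did not overlap), and Urod, from 14.18 and 14.33 to 15.62 and 15.61, had the smallest rise.

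All 10 globins measured were higher in progenitors and 6 were called (median 3.36). Hbb-y, the embryonic beta-like globin, was at 14.56 and 13.66 in HE2 and at 18.16 and 17.78 in progenitors (log2 change 3.86, SE 1.06, adjusted p = 0.0315), a call lost without HE2 replicate 2 (3.41) or either progenitor array. Adult beta-globin probes rose as well, Hbb-bs from 8.38 and 8.28 to 12.44 and 12.01 and Hbb-b2 from 10.77 and 10.44 to 14.54 and 14.15. The minor theta-like genes Hbq1a and Hbq1b rose by 2.87 and 3.25, and Hbb-bt by 2.00. Without HE2 replicate 2 or progenitor replicate 1, Hbb-bt (1.68 and 1.56) and Hbb-y were not called, which left 4 globins. Hba-x, the embryonic alpha-like globin, was at 14.87 and 14.72 against 18.29 and 18.26 (3.48, adjusted p = 0.155), Hba-a1 at 14.42 and 14.37 against 18 and 17.93, Hba-a2 at 16.45 and 16.43 against 18.82 and 18.86 and Hbb-bh1 at 17.46 and 17.42 against 18.89 and 18.91. These 4 were not called, since their spread was taken over all 16 arrays, and with only the 8 Sp1-/- arrays in the model all 10 globins were called. Alpha-globin genes, and likewise adult beta-globin genes, are near-identical in sequence, so a probe of one can pick up another and the split between copies is uncertain.

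The proteins of the red cell membrane and its skeleton followed, with 18 of 29 members risen, none fallen and a median of 2.04. Slc4a1, the anion exchanger band 3, went from 9.27 and 9.19 to 13.36 and 13.18, a 16.4-fold rise (log2 change 4.04, SE 0.34, adjusted p = 4.3e-05). Add2, encoding the skeletal protein beta-adducin, rose 16.0-fold, from 8.42 and 8.15 to 12.25 and 12.32. Kel, encoding a blood group protein, measured 7.71 and 7.53 against 11.55 and 11.27. The junctional protein Tmod1 rose 12.2-fold, the tetraspanin Tspan33 12.9-fold, Trim10 12.9-fold and the adhesion molecule Icam4 11-fold. Ank1, encoding ankyrin, and Epb42 rose by 3.05 and 2.75 on the log2 scale. Aqp1, Bpgm, Epb41 and Trim58 were among the 11 that were not called, at -1.63, 0.33, 0.55 and 0.43. Ahsp was not tested.

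Iron handling rose in 7 of 20 members, against 2.33% of all genes. Slc25a37, the mitochondrial iron importer mitoferrin 1, went from 11.55 and 11.54 to 14.81 and 14.89 (9.88-fold, adjusted p = 1.92e-05). The transferrin receptors Tfrc and Tfr2 rose 3.54-fold and 4.38-fold, the mitochondrial transporter Abcb10 4.35-fold and the endosomal ferrireductase Steap3 2.76-fold. Ferritins Fth1 and Ftl1 and the exporter Slc40a1 were not called, at -0.03, -0.11 and -0.89. Beyond the lists, the tartrate-resistant phosphatase Acp5 rose 15.8-fold, from 11.64 and 11.86 to 15.78 and 15.68, and the glutamine transporter Slc38a5 15.1-fold, from 10.13 and 10.61 to 14.31 and 14.27.

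The regulators of these genes were called less widely. Klf1, the erythroid Krüppel-like factor, rose from 10.02 and 10.36 to 13.66 and 13.65 (log2 change 3.47, SE 0.59, adjusted p = 0.0025). Gata1 was at 12.90 and 13.25 in HE2 and at 15.60 and 15.67 in progenitors (2.56, SE 0.64, adjusted p = 0.0216), a call lost without HE2 replicate 1 (2.38) and without either progenitor array (2.60 and 2.52). Lmo2, the bridge of the TAL1 complex, rose by 1.28. Epor, the erythropoietin receptor, rose 7.14-fold, from 12.13 and 12.32 to 15.03 and 15.09 (adjusted p = 6.04e-05). Other erythroid factors were higher without a call, Nfe2 at 0.96, Zfpm1 at 0.91, Gfi1b at 0.89 and Tal1 at 0.54. Of 18 erythroid factors 3 rose and 1, Klf8, fell (-1.80).

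Among 30 hematopoietic transcription factors 5 rose and 2 fell. Runx1, required for the transition itself, had log2 intensities of 13.36 and 13.26 in HE2 and 13.83 and 13.50 in progenitors (0.36, adjusted p = 0.531). Gata2, Myb, Spi1 and Fli1 were not called either, at -0.31, 0.02, 0.22 and -0.61. Gfi1, a repressor of the endothelial program, fell from 10.73 and 10.51 to 8.10 and 8.39, whereas Gfi1b was 13.48 and 13.79 against 14.47 and 14.57. Besides Klf1, Gata1 and Lmo2, the risers were Irf8 (8.88 and 8.94 against 10.98 and 10.92) and Zbtb16 (9.75 and 9.83 against 11.65 and 11.34). Of 25 cytokine receptors 2 rose, Epor and Csf2rb2, and 4 fell, Kit, Il6st, Il2rg and Lifr, the last 3 by 1.42, 1.32 and 1.30 on the log2 scale. Kit and Lifr lost their calls without HE2 replicate 1 or progenitor replicate 1, which left 2 falls, with Lifr at -1.12 and -1.15. Csf2rb2 was called at 1.31 and not without HE2 replicate 1 (1.14).

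Myeloid genes rose in 18 of 44 members and fell in 1 (median 0.69). Ncf4, a subunit of the phagocyte NADPH oxidase, went from 10.55 and 10.59 to 13.76 and 13.55 (log2 change 3.09, SE 0.30, adjusted p = 7.87e-05), and the subunits Ncf1 and Cyba rose too. Irf8 and Cebpa, factors of the monocyte and granulocyte lineages, rose by 2.04 and 1.12, and for Cebpa the values were 7.32 and 7.55 against 8.50 and 8.60. The lipopolysaccharide coreceptor Cd14, the surface antigen Cd52 and the granule protease Prtn3 rose by 2.22, 2.31 and 1.93. Ptprc, encoding the pan-leukocyte antigen CD45, was at 8.13 and 8.81 in HE2 and at 9.70 and 10.19 in progenitors (1.48, adjusted p = 0.00485). Csf1r, the macrophage growth factor receptor, was at 12.24 and 13.28 against 13.45 and 13.37 (0.65, adjusted p = 0.27), and Spi1, Mpo and Elane were not called. Mrc1, the mannose receptor of macrophages and some endothelia, fell by 1.92, but not without HE2 replicate 1 (-1.79) or progenitor replicate 1 (-1.78).

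Platelet genes rose in 9 of 36 members and fell in 1 (median 0.33), against 2.33% and 2.66% of all genes. The 3 chains Gp1bb, Gp9 and Gp5 of the platelet von Willebrand factor receptor rose 4.41-, 4.16- and 3.86-fold, and the platelet tubulin Tubb1 went from 7.93 and 8.39 to 10.60 and 10.81 (5.84-fold). Gp1bb has 3 probes, and over the alternatives its log2 change ran from 1.088 to 2.345. Pf4, the chemokine of platelet granules, had 10.34 and 10.41 against 12.22 and 11.36. Itgb3, the partner chain of CD41, was not called (-0.10), and Mmrn1, of endothelium and platelets, fell by 1.21. Of 13 mast cell genes, Srgn, the granule proteoglycan serglycin, rose 5.78-fold and Hdc and Mcpt4 2.16-fold each, and Mcpt4 was not called without HE2 replicate 2 or progenitor replicate 1 (0.995 in both). Of 19 lymphoid genes none rose and 2 fell, against 2.66% of all genes. Gata3 fell from 9.38 and 9.30 to 7.08 and 7.04 and Ebf1 from 7.90 and 7.64 to 6.26 and 6.33. The T cell gene Cd3e gave a signal of 12.45 and 12.62 in HE2 and 11.82 and 11.84 in progenitors and was not called, while Rag1 was not well above background on any of the 4 arrays.

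Interferon-stimulated and inflammatory genes rose in 14 of 28 members, with a median of 1.00, and none fell. The chemokines Ccl3 and Ccl4 went from 10.82 and 10.58 to 12.96 and 13.06 and from 9.15 and 8.68 to 11.10 and 10.55. Ifit3 and Oas1a, antiviral effectors induced by interferon, rose by 2.01 and 1.92, and Psmb8, a subunit of the immunoproteasome, by 1.76. In each of these 5 genes the groups did not overlap, as in 56.82% of all genes tested. The 5 were picked as the largest called rises of the list. The upstream factors Stat2, Irf1, Irf7 and Irf9 were not called, at 0.11, -0.13, 0.44 and 0.23.

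**Figure D2:**
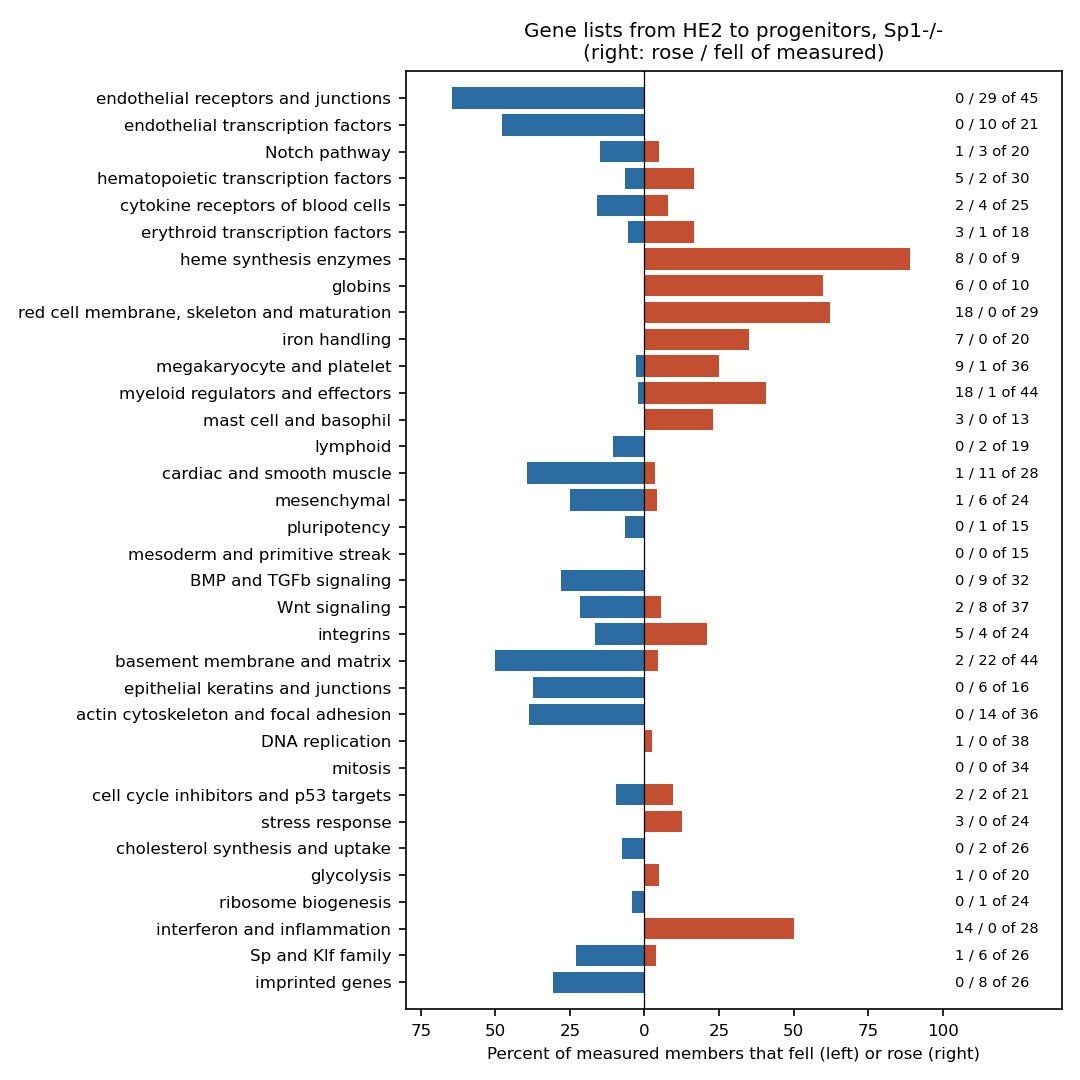
Percentage of the measured members of 34 gene lists, the sort markers left out, that fell (blue, to the left) or rose (red, to the right) from HE2 to progenitors in Sp1-/- cells, with the numbers risen and fallen of those measured at the right edge. Of the lists plotted, heme enzymes have the highest percentage of rises (8 of 9) and endothelial receptors and junctions the highest percentage of falls (29 of 45).

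Some genes of contractile, mesenchymal and epithelial cells also fell, although most members of these lists were not called. Of 28 cardiac and smooth muscle genes 11 fell and 1 rose (median -0.75, and -2.01 with the scanner's processed signal). Acta2, encoding smooth muscle actin, was at 16.09 and 15.37 in HE2 and at 12.85 and 12.77 in progenitors (log2 change -2.92, SE 0.47, adjusted p = 0.00177). Tagln had 15.34 and 14.67 against 12.23 and 12.03 and Cnn1 11.05 and 10.39 against 8.07 and 7.99, both actin-binding proteins of smooth muscle. Actc1, the cardiac actin, fell from 12.46 and 11.14 to 8.80 and 8.61, and without HE2 replicate 1 it was -2.43 and not called. HE2 replicate 1 was the higher of the HE2 arrays in all 4 of these genes. The cardiac factors Gata4, Hand1 and Hand2 fell by 2.49, 2.29 and 2.20. Tnni1, a slow-twitch troponin, rose by 1.85, from 10.45 and 10.89 to 12.49 and 12.54.

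Of 24 mesenchymal genes 6 fell and 1, S100a4, rose. Cdh2, encoding N-cadherin, fell from 11.65 and 11.53 to 9.29 and 9.25, Col5a1 by 1.58 and Vim by 1.63. Col1a1, from 10.47 and 9.75 to 7.16 and 7.13, had an adjusted p = 0.0355 and was not called without any 1 of the 4 arrays (-3.33 to -2.61), and the number of falls in the list was 3 without HE2 replicate 1, progenitor replicate 1 or progenitor replicate 2. Of 16 epithelial genes 6 fell. The keratins of simple epithelia Krt8, Krt18 and Krt19 fell 8.17-, 4.84- and 8.37-fold, with HE2 replicate 1 higher than replicate 2 in all 3. Without that replicate, 2 of the 16 were called. Cdh1 and Epcam, which define epithelial cells, were not called (-0.16 and 0.10).

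The summed linear intensity of each list shows how much of this signal each array carried, but the brightest members dominate such a sum. Acta2 was at 16.09 and 15.37 in HE2, where the median muscle gene was at 7.79. Krt18 was at 14.78 and 13.85, where the median epithelial gene was at 7.95. The sums therefore do not describe the typical member. The cardiac and smooth muscle list summed to 129000 and 80900 in HE2 and to 22600 and 21600 in progenitors. Sums were 84900 and 79100 against 28100 and 31000 for the mesenchymal list and 44200 and 28000 against 10700 and 10400 for the epithelial list. Among the defining markers, Myh6 had log2 intensities of 7.16 and 6.78 in HE2 and 6.77 and 6.70 in progenitors. Pdgfra was at 6.40 and 6.32 in HE2 and was not well above background in progenitors. The pluripotency markers Pou5f1 (6.60 and 6.71 against 6.40 and 6.46) and Zfp42 were dim in both groups, and Nanog was at 9.39 and 9.45 against 9.23 and 9.20. What part other cells in the gates had in the falls was not tested. In a sorted population, fewer cells of a type and less RNA per cell cannot be told apart.

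Actin cytoskeleton and focal adhesion genes fell in 14 of 36 members and rose in none (median -0.52). Ccn2 and Ccn1, matricellular proteins known as targets of YAP, fell from 11.97 and 11.69 to 7.86 and 8.34 (13.3-fold) and from 11.71 and 11.31 to 9.22 and 9.34 (4.69-fold). Ankrd1, also a YAP target, fell 7.16-fold and Amotl2 was called as well. Parva and Cald1, a focal adhesion adaptor and an actin-binding protein, fell by 2.39 and 2.10 on the log2 scale. Actb, Actg1, Vcl and Tln1 were not called, at -0.09, -0.13, 0.18 and 0.16.

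Imprinted genes, expressed from 1 parental copy and many of them growth regulators of the embryo, fell in 8 of 26 members and rose in none (median -0.81). Of all genes, 2.66% fell. Plagl1, a zinc finger factor, went from 12.99 and 12.52 to 8.86 and 8.89 (14.7-fold) and Mest from 16.20 and 16.07 to 12.10 and 12.63 (13.6-fold). Igf2, the fetal growth factor, fell 9.99-fold, from 13.04 and 12.52 to 9.47 and 9.45, and its neighbor H19, a noncoding RNA, 8.06-fold. Meg3 fell 9.16-fold, Cdkn1c 3.03-fold, and Sgce and Peg10 were also called. Meg3 has 3 probes, and over the alternatives its log2 change ran from -4.023 to -1.672. Gnas, Grb10 and Snrpn were not called (-0.17, 0.13 and 0.52).

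The Sp and Klf family, whose members share the zinc finger DNA-binding domain that the Sp1-/- cells lack in Sp1, held 1 rise and 6 falls of 26. Of all genes, 2.33% rose and 2.66% fell. The rise was Klf1. Besides Klf2 and Klf8, Klf4 (-1.36), Klf6 (-1.11), Klf10 and Klf14 fell, and 2 falls in all were called without HE2 replicate 1 or without progenitor replicate 2. Klf14 was not well above background in progenitors and at least 2.32-fold lower. Sp3 was at 9.42 and 8.14 in HE2 and at 9.13 and 9.27 in progenitors (0.42, adjusted p = 0.555), and Sp4 at 9.51 and 9.68 against 9.90 and 9.99 (0.35, adjusted p = 0.128). The groups of Sp3 overlapped, those of Sp4 did not, and neither gene was called.

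Housekeeping programs and several other lists held few called genes. Of 34 mitosis genes none was called in either direction by limma and 4 (Ccnb2, Mad2l1, Mki67 and Kif23, at 0.22 to 0.64) had an unadjusted p of 0.05 or less, and 17 of the 34 values were below 0. Of 38 DNA replication genes only E2f2, from 12.23 and 12.18 to 13.89 and 13.81, was called, although 31 of the 38 values were above 0 (median 0.11). Among 24 ribosome biogenesis genes only Mycn fell, by 1.45, and among 20 glycolytic genes only Hk1, the hexokinase of red cells, rose, by 1.45. Of 26 genes of cholesterol and fatty acid synthesis and uptake 2 fell, Hmgcs1 of the mevalonate pathway (-1.24) and the fatty acid desaturase Scd1 (-1.67), with 25 of the 26 values below 0. Of 24 stress response genes Trib3, Nqo1 and Asns rose, by 1.76, 1.71 and 1.17, the last not called without HE2 replicate 1 (0.915). Of 21 cell cycle inhibitors and p53 targets, Gadd45a and Pmaip1 rose by 1.90 and 1.78 and Cdkn1c and Trp53inp1 fell by 1.60 and 1.05. Without HE2 replicate 1 neither fall was called (-1.32 and -0.895). Of 15 pluripotency genes only Lin28a fell, from 13.62 and 13.52 to 11.63 and 11.84, and of 15 mesoderm genes none was called by limma, and the unadjusted p was under 0.05 for 2, Eomes and Wnt3 (-0.88 and -0.89).

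The Sp1-/- series holds 4 populations, which are Flk1+ cells, the CD41- stage HE1, HE2 and progenitors. The genes that rose and those that fell were followed over them. These values are descriptions with no test. Both sets were chosen on the last step, so a gene that rose could not be highest in HE2, nor one that fell in progenitors. Of all 37149 genes, 11824 were highest in progenitors, 9127 in HE1, 10484 in Flk1+ cells and 5714 in HE2. Of the 864 genes that rose, 788 had their highest mean in progenitors, and the median gene had log2 intensities of 7.54, 7.65, 7.98 and 9.66 in the order of the populations. Of the 988 that fell, 617 were highest in HE1, 221 in Flk1+ cells and 150 in HE2, with medians of 10.17, 11.19, 10.09 and 8.43. Tek was at 7.21 and 8.11 in Flk1+ cells, 11.89 and 11.65 in HE1, and Cdh5 at 9.22 and 9.61 in Flk1+ cells and 14.54 and 14.62 in HE1, both above their HE2 values. Alas2 measured 7.37 and 7.51 in Flk1+ cells and 7.38 and 7.46 in HE1, and Klf1 7.51 and 7.24 and then 6.78 and 6.66, so both lay higher in HE2 than in either earlier population. Bmp4 was highest in Flk1+ cells, at 14.84 and 15.26, and lower in each later population. Acta2 went from 9.85 and 9.59 in Flk1+ cells to 17.84 and 17.12 in HE1.

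**Figure D3:**
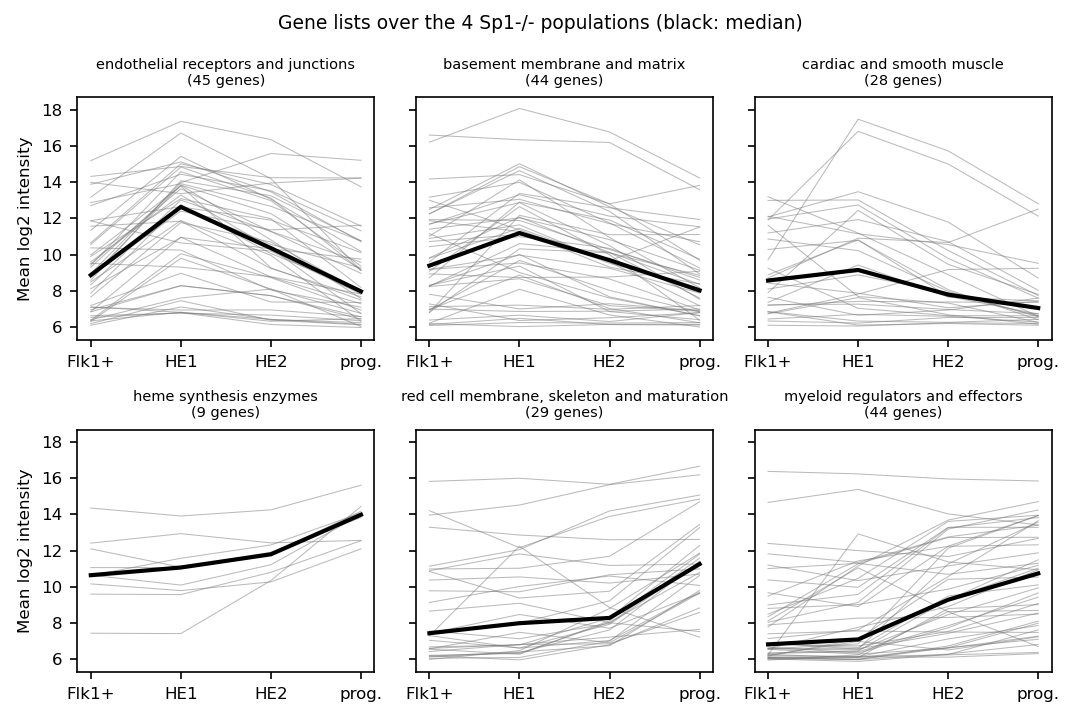
Mean log2 intensity of 2 arrays (vertical axis) over the 4 Sp1-/- populations for 6 gene lists. Each gray line is a gene and the black line the median of the list. Endothelial and matrix lists peak in HE1, at medians of 12.64 and 11.19, and reach 7.97 and 8.03 in progenitors, and heme enzymes go from 10.64 in Flk1+ cells to 13.98 in progenitors.

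The same step was compared with that of Sp1+/+ cells through the interaction term of the model, the Sp1-/- change minus the Sp1+/+ change. Each genotype had a slide of its own, and the effects of the 2 cannot be told apart, although an additive slide effect cancels within each change. The term was positive in 254 genes (0.684% of genes tested) and negative in 338 (0.91%), 592 or 1.59% in all. The adjusted p-values of the called terms reached 0.251, and at an adjusted p of 0.05 or less the counts were 111 and 111. Without Sp1+/+ progenitor replicate 1, 159 were positive. In the endothelial receptor and globin lists the Sp1+/+ replicates were further apart than the Sp1-/- ones, which was not so in every list. The endothelial receptor list summed to 304000 and 555000 in Sp1+/+ HE2 and to 222000 and 147000 in Sp1+/+ progenitors, against 291000 and 317000 and then 107000 and 124000 without Sp1, and the globins to 180000 and 59300 and then 377000 and 1000000, against 350000 and 328000 and then 1860000 and 1790000.

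Of the 864 genes that rose in Sp1-/- cells, 278 were also called higher in Sp1+/+ cells and 1 was called lower, and by the interaction the rise was larger in Sp1-/- cells in 221 and smaller in 6. Of the 988 that fell, 225 were also called lower with Sp1, and the fall was larger without Sp1 in 276 and smaller in 1. Both skews are favored by the choice of genes on the Sp1-/- change. The median log2 change of the 864 genes was 1.39 without and 0.65 with Sp1, and of the 988 genes -1.48 and -0.63, but the genes were chosen on the first of each pair. Of the 45 endothelial receptors and junction genes, 23 also fell with Sp1 and the interaction was called in 4. For Tek itself it was -0.75 (adjusted p = 0.762), for Cdh5 -1.61 (adjusted p = 0.358) and for Ptprb -1.74 (adjusted p = 0.504).

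Among contractile, matrix and adhesion genes the interaction was called more often than over all genes. It was negative in 8 of 28 muscle genes, 15 of 44 matrix genes and 10 of 36 cytoskeletal genes, against 0.91% of all genes. Acta2, which fell without Sp1, was at 16.57 and 15.09 in Sp1+/+ HE2 and at 16.81 and 16.24 in Sp1+/+ progenitors, and its interaction was -3.61 (SE 0.66, adjusted p = 0.0366). Ccn2 stood at 12.37 and 12.97 and then 12.63 and 12.18 with Sp1 (interaction -3.46, adjusted p = 0.00909). Tagln was at 15.78 and 14.80 and then 15.94 and 15.65 (-3.38, adjusted p = 0.00981). In these 3 genes the arrays of the populations overlapped in Sp1+/+ cells and did not in Sp1-/- cells. Of all genes tested, 56.82% did not overlap in Sp1-/- cells. The largest negative terms, -4.51 for Igfbp2, -4.35 for Col1a1, -4.29 for Krt8 and -4.20 for Actc1, had adjusted p-values of 0.109, 0.153, 0.0848 and 0.112, and the Sp1+/+ HE2 arrays of Col1a1 and Krt8 were 11.80 and 9.12, and 12.69 and 10.39. Bmp4, at 13.65 and 13.37 and then 13.15 and 12.71 with Sp1, had -2.55 (adjusted p = 0.0134).

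The interaction was positive in 6 of 9 heme enzymes, 13 of 29 red cell membrane genes, 2 of 10 globins, 3 of 20 iron genes and 0 of 18 erythroid transcription factors, against 0.684% of all genes, and negative in none of these 5 lists. Slc4a1 was at 8.31 and 7.58 in Sp1+/+ HE2 and at 8.03 and 9.37 in Sp1+/+ progenitors, and its interaction was 3.29 (adjusted p = 0.0143). Uros had 10.72 and 10.75 and then 11.33 and 12.11 with Sp1 (1.78, adjusted p = 0.0387), and Slc25a37 11.34 and 11.17 and then 11.78 and 12.78 (2.28, adjusted p = 0.0135). The Sp1+/+ progenitor arrays of these genes differed from each other by more than the Sp1-/- ones. For Alas2 the term was 2.21 and not called (adjusted p = 0.325), for Klf1 0.26 (adjusted p = 0.953) and for Gata1 -0.45 (adjusted p = 0.917), whose rise with Sp1 was 3.02. Further positive terms were those of Lmx1a (2.67, adjusted p = 0.00219), Fam25c (2.64) and Spef1 (2.47).

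**Figure D4:**
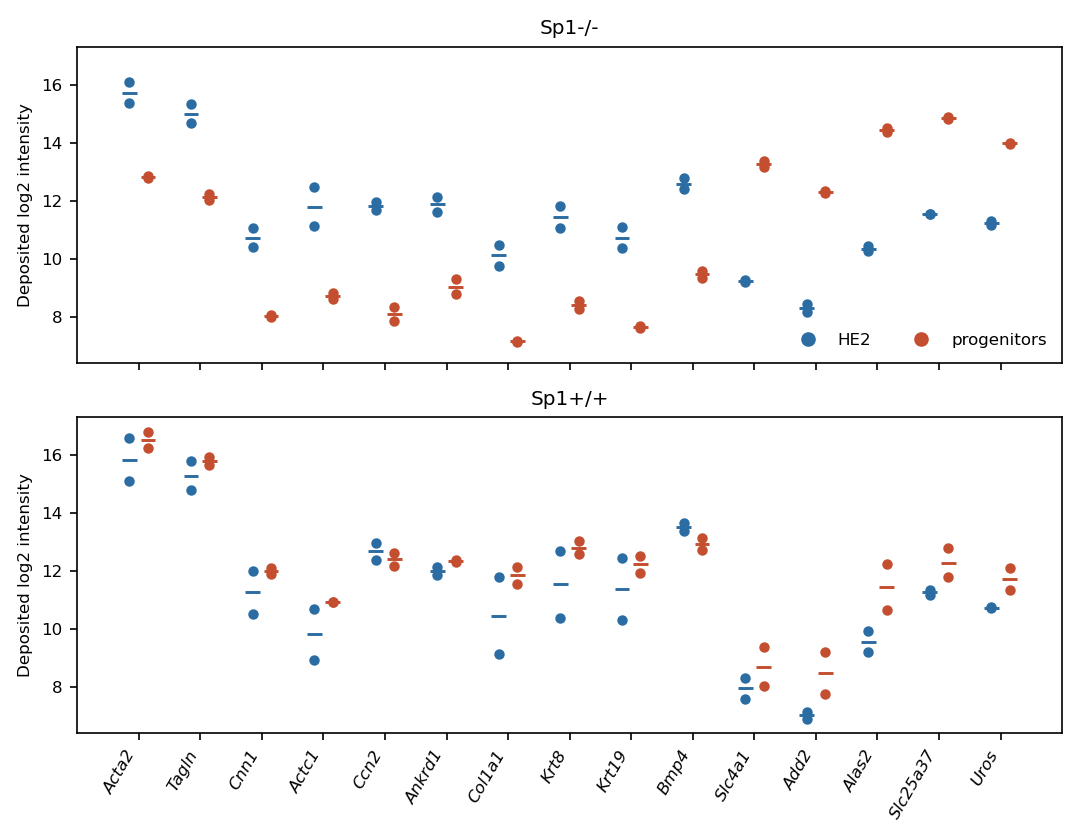
Deposited log2 intensity (vertical axis) of 15 genes on the Sp1-/- arrays (top) and the Sp1+/+ arrays (bottom). Blue points are HE2, red points progenitors, 2 arrays each, and bars their means. Without Sp1 the 2 colors are apart in every gene, and with Sp1 they overlap in Acta2, Tagln, Cnn1, Ccn2, Col1a1, Krt8, Krt19 and Slc4a1.

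**Figure D5:**
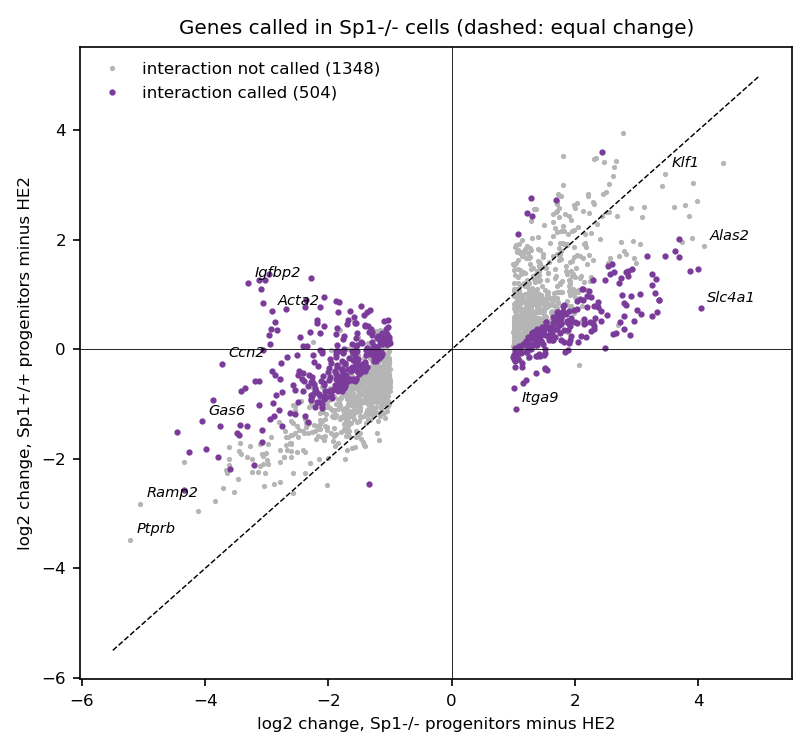
Log2 change from HE2 to progenitors in Sp1-/- cells (horizontal axis) and Sp1+/+ cells (vertical axis) for the 1852 genes called in Sp1-/- cells. Purple points are the 504 genes with a called interaction, gray points the other 1348, and the dashed line marks equal changes. The genes were chosen by the horizontal value, and Acta2 and Slc4a1 lie far from the dashed line while Klf1 lies close to it.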

How the data were processed

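Gene expression was measured on 16 Agilent SurePrint arrays with 1 color, 2 for each of 8 groups. The authors scanned spot intensity with Agilent Feature Extraction (10.7.1.1 per the labels, 10.7.3.1 per the file headers). The deposited log2 values were background-corrected with normexp and quantile normalized by the authors in limma. They matched a recomputation with an offset of 50 (largest difference 0.0258) and not the stated 16 (1.63), and a larger offset shrinks changes of dim genes. Depth does not apply to arrays, whose number limits the precision, and 0 columns stayed unmapped.

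Probes were named by accession through a RefSeq table (GRCm38.p6). Accessions named 20865 of the 37932 targets and symbols or synonyms 12, and 17055 stayed without a name. Probes with a log2 of at least 6 on 1 array or more entered (55595), and the brightest probe stood for each of 9666 genes with several. The design build was mm9, so no gene coordinates are given beside those of the promoter windows.

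limma 3.58.1 in R 4.3.3 was fitted to 8 groups (residual degrees of freedom 8), with the contrast of Sp1-/- progenitors and HE2 and its interaction with genotype. The threshold was an unadjusted p of 0.01 and 2-fold, as in the study's methods, with Benjamini-Hochberg values beside it. Scripts were tested on simulated data. Tables and figures used Python 3.11.15, pandas 2.3.3 and matplotlib 3.10.9.

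Genes named were Tek, Kit, Itga2b and Sp1, the 15 largest rises and 15 largest falls among called genes whose groups did not overlap, up to 5 called members per list and direction, all members of lists of 10 or fewer, and the 8 largest interactions in each direction among called genes. Some genes that the rule names are not reported here. Other genes are named as list members or markers, with their values known. The comparison and all lists were chosen with earlier results of these data known. Alternatives were other background corrections and normalizations, no filter or a filter on background, and the mean over probes. Others were fewer arrays in the fit, a replicate block, other thresholds and leaving out each array. The last was a Student's t-test, which the methods name for sample comparisons, whereas they name limma for the arrays.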

Additional observations from a re-analysis of the deposited data

Results flagged for a closer look

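In 34 of the 170 genes named by the rule, the change from HE2 to progenitors differed between Sp1-/- and Sp1+/+ cells by limma's interaction term at an adjusted p of 0.05 or less (0.00219 to 0.0498), where 111 positive and 111 negative terms passed among all 37149 genes. The rule names genes by their Sp1-/- change and by the largest interactions, so neither this count nor the medians below are independent of that choice. Values below are the Sp1-/- change minus the Sp1+/+ change on the log2 scale, and slide and genotype cannot be told apart.

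The term was negative in 20 genes, whose median change was -2.57 without Sp1 and -0.13 with it. Contractile and cytoskeletal genes were Acta2 (-3.61), Cnn1 (-3.42), Tagln (-3.38), Cald1 (-2.07) and Parva (-1.81), and the YAP target genes were Ccn2 (-3.46), Ankrd1 (-3.20) and Ccn1 (-2.00). Matrix and adhesion genes were Lama1 (-3.06), Nid1 (-2.52), Cdh2 (-1.85), Itga7 (-1.57) and Col5a1 (-1.55). Signaling genes were Gas6 (-2.74), Tgfb2 (-2.68), Bmp4 (-2.55), Fzd1 (-1.76) and Notch3 (-1.34). The noncoding RNA Meg3 (-2.61) and the RNA-binding protein gene Lin28a (-1.26) complete the set.

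The term was positive in 14 genes, whose median change was 2.99 without Sp1 and 0.64 with it. Erythroid genes were Slc4a1 (3.29), Add2 (2.54), Slc25a37 (2.28), Uros (1.78), Alad (1.5) and Ppox (1.47). The others named here were Lmx1a (2.67), Fam25c (2.64), Spef1 (2.47), Slc25a21 (2.42), Itga9 (2.13), Tnni1 (1.89) and Mcpt4 (1.06).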

How the results depend on the processing

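The 864 genes that rose and 988 that fell stayed within 1.5 times under most alternatives. With the scanner's processed signal 1914 fell, and the share of lower among all calls went from 53.3% to 62.9%. A Student's t-test called 542 and 498 genes. At an adjusted p of 0.01 it called 1 and 0, where limma called 709 and 754. Leaving out 1 array gave 807 to 841 rises and 866 to 998 falls. The stated offset of 16 gave 1170 and 1320. Of the interactions, 254 were positive and 338 negative. At an adjusted p of 0.05 they were 111 and 111, at 0.01 they were 20 and 19, and by the t-test 124 and 136, with 0 and 0 after adjustment. With the processed signal 636 were negative. Leaving out 1 array gave 159 to 330 positive and 254 to 428 negative. The causes were not tested.

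With the replicate number as a block, 892 rose and 983 fell and the interaction was positive in 259 and negative in 353. Deviations of same-numbered arrays correlated between -0.174 and 0.503 (0.147 for Sp1-/- HE2 and progenitors), some pairs being positive and others negative. No label says that a number marks a shared culture, and whether same-numbered arrays share one was not tested.

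No named gene reversed. Of the 163 called among the 170 named, 124 kept the call under every alternative other than the t-test and 39 lost it under at least 1. Arrays carry no read depth, and signals near background limit the changes of dim genes.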
